A study of Mus musculus with 8 samples.

Results

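The 8 genes described here act in writing or removing DNA methylation in the mouse. They are the writers Dnmt1, Dnmt3a, Dnmt3b, Dnmt3l and Uhrf1 and the erasers Tet1, Tet2 and Tet3. Dnmt3l and Uhrf1 are counted as writers because they assist the methyltransferases. The 8 genes were taken by gene symbol from a table of 20943 genes, and all 8 were present. Their RNA levels were compared between malignant peripheral nerve sheath tumors (MPNST) that lost Polycomb repressive complex 2 (PRC2) and tumors that kept it. MPNST are sarcomas of the Schwann cell lineage, and PRC2 silences genes by methylating histone H3. In PRC2 loss tumors Uhrf1 was 11.8-fold and Dnmt1 2.03-fold lower, Dnmt3l was lower near the floor of the table, Tet2 was 1.52-fold higher, and Dnmt3a, Dnmt3b, Tet1 and Tet3 did not pass the test.

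DNA methylation in mammals is the addition of a methyl group to cytosine, mostly at CG pairs (CpG). Dnmt3a and Dnmt3b place new marks, Dnmt3l has no catalytic activity of its own and stimulates them in the germline, and Dnmt1 copies marks onto the new strand after replication, where Uhrf1 binds hemimethylated CpG and recruits it. The Tet enzymes oxidize methylcytosine, a step toward its removal. The values below are RNA levels, and DNA methylation itself was not measured in these samples.

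The 3 PRC2 loss tumors carried floxed Nf1, Cdkn2a and Eed, and the 5 PRC2 wildtype tumors floxed Nf1 and Cdkn2a. Both groups carried Plp-CreERT, whose Plp promoter drives a Cre recombinase in Schwann lineage cells once tamoxifen is given, here 0.4 mg on days 0 to 3 of life. The labels give the tumors as Nf1(-/-) Cdkn2a(-/-) Eed(-/-) and as Nf1(-/-) Cdkn2a(-/-). Other cell types in a tumor are not targeted by this driver. The right paraspinal nerve was the site of PRC2 loss tumor 1. The sample codes of tumors 2 and 3 share 1 number, read here as an animal number. Their sites are given as left and right sciatic nerve, in that order. No site is stated for a wildtype tumor. Wildtype tumors 1 and 2, and 3 and 4, also share animal numbers, so there are 2 and 3 numbers for the groups. If a shared number is a shared mouse, the p-values are too small.

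Values are the deposited quantile-normalized log2 gene counts, called levels here, and a difference of 1 is a 2-fold difference. Sequencing depth is unknown. Genes at 0 numbered 1822 to 2113 per PRC2 loss tumor, against 2686 to 3372 per wildtype tumor. Eed, the targeted PRC2 subunit gene, had levels of 8.76, 8.93 and 8.96 in PRC2 loss tumors, against 10.17 to 10.33 in wildtype tumors, and was lower in every PRC2 loss tumor (log2 difference -1.36, limma adjusted p = 0.00021). Of 20807 genes tested with limma, 7424 (35.7%) passed an adjusted p of 0.05, 3337 (16%) higher and 4087 (19.6%) lower in PRC2 loss. When tumors were centred on 15 housekeeping genes, of which 10 were themselves lower, the split was 7321 higher and 1802 lower. The median log2 difference of all genes was then 0.40, against -0.12 without that centring. In a bulk tumor, fewer cells of a type and less RNA per cell cannot be told apart.

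Promoter windows of Uhrf1, Dnmt1 and Tet2 are shown because these are the members above the floor that passed the test, and because Uhrf1 and Dnmt1 fell together. Each window runs from 250 bases before to 50 after a RefSeq transcript start (GRCm38.p6) and is written 5′ to 3′ on the gene's strand. The Uhrf1 window is chr17:56304063-56304362 (plus strand), the Dnmt1 window chr9:20952574-20952873 (minus strand) and the Tet2 window chr3:133544341-133544640 (minus strand). Capitals mark each match to TTTNNCGC on either strand (GCGNNAAA on the other), letters that take in the usual binding site of E2F factors, regulators of replication genes.
Uhrf1: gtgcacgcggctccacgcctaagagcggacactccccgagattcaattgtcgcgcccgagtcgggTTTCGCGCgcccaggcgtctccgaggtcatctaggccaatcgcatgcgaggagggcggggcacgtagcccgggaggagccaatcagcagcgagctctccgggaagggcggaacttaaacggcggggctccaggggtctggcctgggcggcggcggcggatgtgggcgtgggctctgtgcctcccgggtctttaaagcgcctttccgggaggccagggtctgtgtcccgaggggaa
Dnmt1: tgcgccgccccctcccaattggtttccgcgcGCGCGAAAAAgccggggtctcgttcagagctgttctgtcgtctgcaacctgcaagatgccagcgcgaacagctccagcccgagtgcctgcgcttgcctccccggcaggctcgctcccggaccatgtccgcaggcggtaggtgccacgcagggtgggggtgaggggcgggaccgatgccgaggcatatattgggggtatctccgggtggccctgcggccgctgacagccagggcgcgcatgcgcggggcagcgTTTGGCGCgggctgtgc
Tet2: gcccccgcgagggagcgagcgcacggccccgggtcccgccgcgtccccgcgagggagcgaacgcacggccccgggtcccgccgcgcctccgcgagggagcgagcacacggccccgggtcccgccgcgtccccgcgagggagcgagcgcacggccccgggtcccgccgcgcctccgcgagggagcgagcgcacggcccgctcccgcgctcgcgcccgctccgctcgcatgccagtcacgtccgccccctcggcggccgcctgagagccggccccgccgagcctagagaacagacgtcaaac
The windows of Uhrf1, Dnmt1 and Tet2 hold 33, 33 and 57 CpG pairs, and the median of all 32851 windows is 7. The Uhrf1 window has 1 match and the Dnmt1 window 3, of which the first 2 overlap. The Tet2 window has none. All 8 members had at least 1 window and 15 windows in total, and a second Uhrf1 window (chr17:56303087-56303386) also had 1 match. The other 2 Dnmt1 windows (chr9:20952930-20953229 and chr9:20959839-20960138) had none and hold 12 and 2 CpG pairs. The windows of Dnmt3a, Dnmt3b, Dnmt3l, Tet1 and Tet3 had none, which says only that these letters are not in those windows. The letters occur in 5.17% of all windows and in the windows of 5.93% of genes. Of the 20 S phase genes used further on, 17 had a window and 10 of these (58.8%) held the letters. A match is a description of sequence and not evidence of binding.

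The maintenance pair fell in PRC2 loss, Uhrf1 much more than Dnmt1. Uhrf1 (chromosome 17, 56303321 to 56323486, mm10) had levels of 7.81, 8.39 and 7.19 in PRC2 loss tumors 1 to 3, against 11.13, 10.996, 11.97, 11.51 and 11.17 in wildtype tumors 1 to 5. The highest PRC2 loss tumor lay far under the lowest wildtype tumor. The means were 7.80 ± 0.60 (SD, n = 3) for PRC2 loss, against 11.36 ± 0.39 (SD, n = 5) for wildtype, a log2 difference of -3.56 (SE 0.31, limma adjusted p = 0.000217). Dnmt1 (chromosome 9, 20907209 to 20959888) had levels of 10.78, 11.04 and 11.16 in PRC2 loss tumors, against 11.93, 11.51, 12.15, 12.40 and 12.10 in wildtype tumors. These groups did not overlap either, and wildtype tumor 2 was closest to the PRC2 loss tumors. The means were 10.99 ± 0.20 (SD, n = 3) for PRC2 loss, against 12.01 ± 0.33 (SD, n = 5) for wildtype, a log2 difference of -1.02 (SE 0.20, limma adjusted p = 0.00561). Over the 56 ways to assign the 8 tumors, the two-sided exact permutation p was 0.0179 for each of these genes, the smallest that this design can give. Centring on housekeeping genes gave a log2 difference of -0.49 for Dnmt1 (limma adjusted p = 0.0423) and of -3.03 for Uhrf1 (limma adjusted p = 0.000227).

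Neither de novo methyltransferase gene passed the test. Dnmt3a (chromosome 12, 3806007 to 3914443) had levels of 12.78, 12.27 and 11.63 in PRC2 loss tumors, against 11.66, 11.74, 11.79, 11.33 and 12.00 in wildtype tumors. PRC2 loss tumors 1 and 2 were above every wildtype tumor, while tumor 3 lay among them. The log2 difference was 0.52 (95% interval -0.05 to 1.10, limma adjusted p = 0.141). Without PRC2 loss tumor 3 it was 0.82 (limma adjusted p = 0.0328), without PRC2 loss tumor 1 it was 0.25 (limma adjusted p = 0.457), with the mean of 20 S phase genes as a covariate 0.15 (limma adjusted p = 0.960), and with housekeeping centring 1.05 (limma adjusted p = 0.016). Dnmt3b (chromosome 2, 153649450 to 153687730) had levels of 7.55, 7.23 and 7.95 in PRC2 loss tumors, against 7.56, 7.81, 7.89, 7.76 and 7.86 in wildtype tumors. Its PRC2 loss values spread on both sides of a narrow wildtype range. The log2 difference was -0.20 (95% interval -0.73 to 0.34, limma adjusted p = 0.552) and took the other sign, 0.33, with housekeeping centring (limma adjusted p = 0.324). The within-tumor difference Dnmt3a minus Dnmt3b averaged 4.65 ± 0.84 (SD, n = 3) for PRC2 loss, against 3.93 ± 0.22 (SD, n = 5) for wildtype, and the groups overlapped (two-sided exact permutation p = 0.125, adjusted 0.143 over 8 within-tumor differences).

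Dnmt3l (chromosome 10, 78041947 to 78063622) was near the floor in every tumor. Its levels were 1.48, 0.87 and 0.65 in PRC2 loss tumors, against 3.88, 2.56, 1.95, 3.96 and 1.70 in wildtype tumors. All PRC2 loss values were under the lowest wildtype value, by as little as the gap between 1.48 and 1.70. The 1.70 of wildtype tumor 5 recurs there for other low genes, such as Dnmt3aos, which is antisense to Dnmt3a. In PRC2 loss tumors 1 and 3 Dnmt3aos stood at 0.333. Whether the Dnmt3l difference follows from such unequal steps at the floor was not tested. The log2 difference of -1.81 (SE 0.61) only just passed limma (adjusted p = 0.0488), and the two-sided exact permutation test did not reach 0.05 (p = 0.0536). The call was lost in 17 of 21 alternatives (limma adjusted p between 0.0270 and 0.870 over all of them), among them pseudocounts of 1 and 16 and leaving out 6 of the 8 tumors in turn. Aire, which overlaps Dnmt3l on the opposite strand, was also low, at 0 to 0.87 in PRC2 loss and 0 to 4.12 in wildtype. Strand use in counting is not given, so reads of Dnmt3l and Aire may be mixed.

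**Figure D1:**
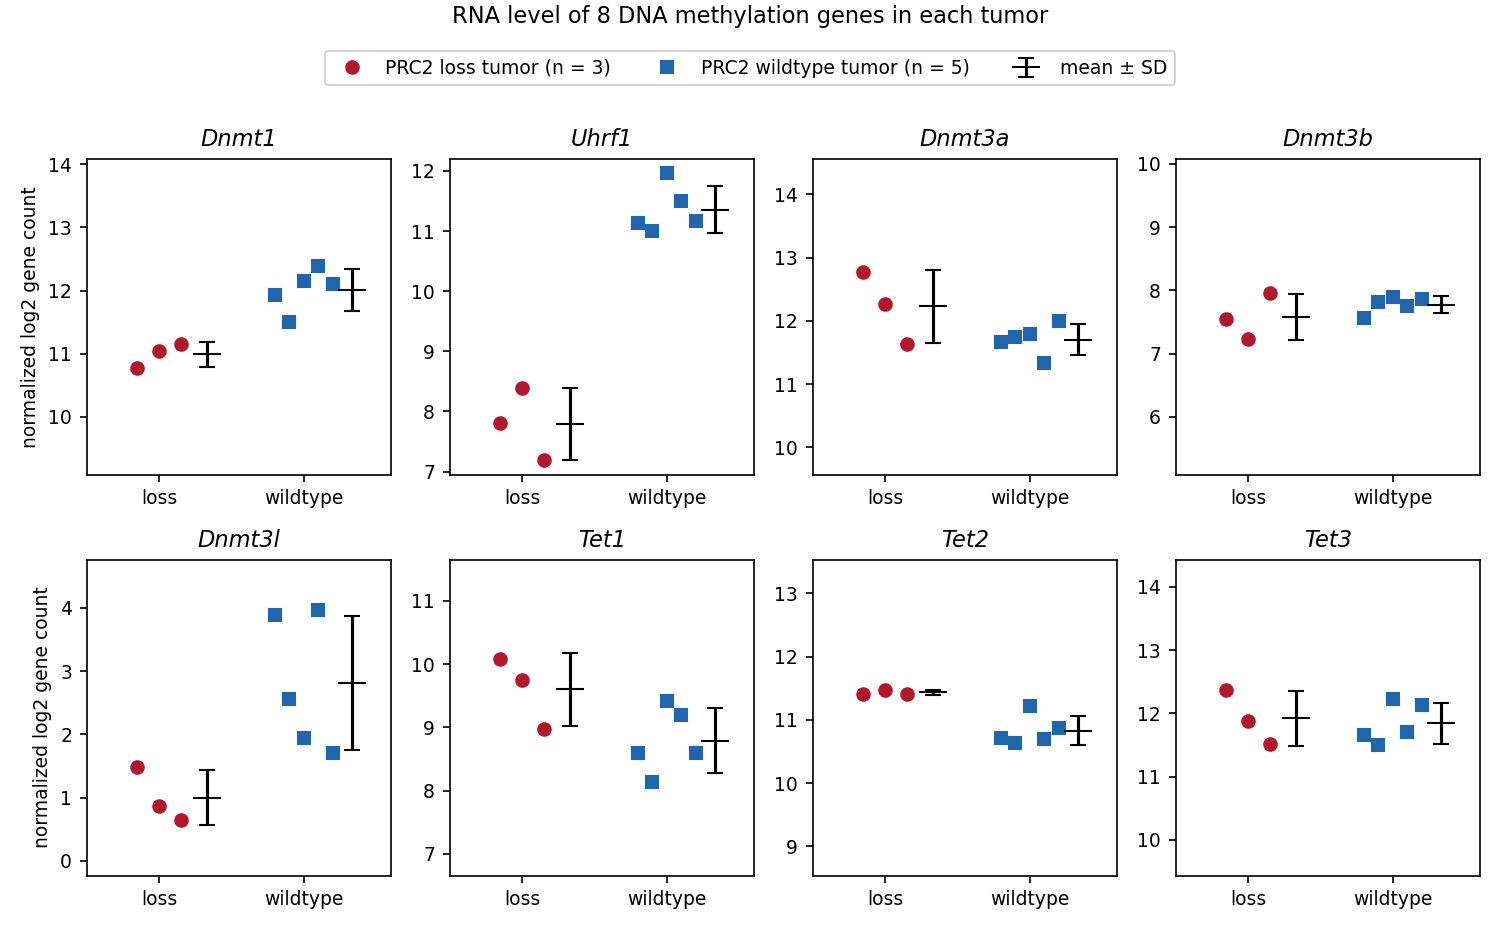
Level (normalized log2 gene count, vertical axis) of each of the 8 genes in every tumor, with PRC2 loss tumors as circles (n = 3), PRC2 wildtype tumors as squares (n = 5) and group means ± SD in black; axes are placed separately for each gene. The groups are apart for Uhrf1, Dnmt1, Dnmt3l and Tet2 and overlap for the other 4 genes.

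Of the erasers, Tet2 rose and Tet1 and Tet3 did not pass the test. Tet2 (chromosome 3, 133463679 to 133545139) is a frequently mutated gene in blood cancers. Its levels were 11.41, 11.47 and 11.41 in PRC2 loss tumors, against 10.71, 10.64, 11.21, 10.70 and 10.87 in wildtype tumors. The PRC2 loss values lay within 0.06 of each other and above every wildtype tumor, of which tumor 3 came closest. The log2 difference was 0.61 (SE 0.14, limma adjusted p = 0.0127) and the two-sided exact permutation p was 0.0179. With housekeeping centring the log2 difference was 1.13 (limma adjusted p = 0.000896). Tet1 (chromosome 10, 62804570 to 62908996) had levels of 10.07, 9.75 and 8.97 in PRC2 loss tumors, against 8.59, 8.14, 9.42, 9.20 and 8.60 in wildtype tumors. PRC2 loss tumors 1 and 2 were above all wildtype tumors, and tumor 3 fell between them. The log2 difference was 0.81 (95% interval 0.01 to 1.61, limma adjusted p = 0.106), and 1.34 with housekeeping centring (limma adjusted p = 0.015). Tet3 (chromosome 6, 83362373 to 83459084) had levels of 12.38, 11.89 and 11.51 in PRC2 loss tumors, against 11.65, 11.49, 12.23, 11.70 and 12.13 in wildtype tumors. These ranges nearly coincided, with a log2 difference of 0.08 (95% interval -0.46 to 0.63, limma adjusted p = 0.799). PRC2 loss tumor 1 was the highest and tumor 3 the lowest of the 3 PRC2 loss tumors for Dnmt3a, Tet1 and Tet3 alike.

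Within tumors the Tet genes did not shift against each other beyond the threshold. Tet3 minus Tet2 averaged 0.49 ± 0.44 (SD, n = 3) for PRC2 loss, against 1.01 ± 0.15 (SD, n = 5) for wildtype, and the PRC2 loss values of 0.96, 0.41 and 0.10 reached into the wildtype range (two-sided exact permutation p = 0.0536, adjusted 0.0714). Tet1 minus Tet3 averaged -2.33 ± 0.21 in PRC2 loss and -3.05 ± 0.41 in wildtype, with the same p values in the exact permutation test. Tet1 minus Tet2 averaged -1.84 ± 0.56 in PRC2 loss and -2.04 ± 0.39 in wildtype (exact permutation p = 0.589, also after adjustment).

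Over the 8 genes, 3 passed lower, 1 passed higher and 4 did not pass, so 4 of 8 (50%) passed where 35.7% of all genes did. The groups did not overlap for the same 4 genes, and for 38.3% of all genes. Dnmt3l, near the floor, is among these 4. The median log2 difference of the 8 was -0.06, against -0.12 over all genes. With 8 genes these shares are a description only.

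**Figure D2:**
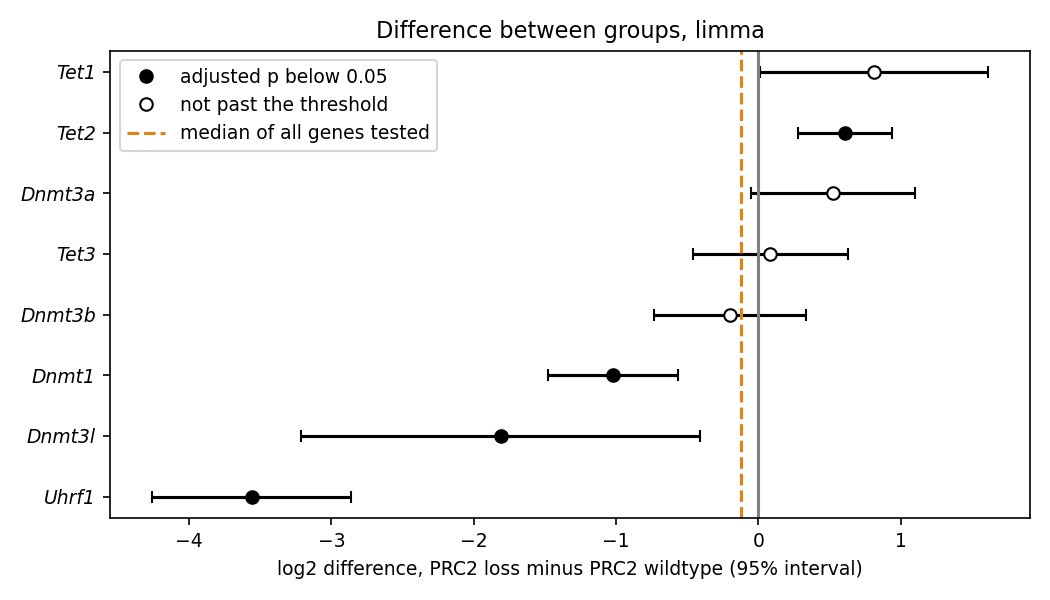
Log2 difference of each gene, PRC2 loss minus PRC2 wildtype (horizontal axis), with 95% intervals from limma; filled points passed an adjusted p of 0.05 and the dashed line is the median of all 20807 genes tested. Uhrf1 stands at -3.56, apart from the other 7 genes, which lie between -1.81 and 0.81.

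Uhrf1, Dnmt1 and Dnmt3b were next set against genes of DNA replication in the same tumor, since maintenance methylation works at the replication fork. A list of 20 S phase genes was used, among them the helicase genes Mcm2 to Mcm7, the clamp gene Pcna and the origin factor genes Cdc45 and Cdc6. Of these 20 genes 19 fell, none rose and 1, Rrm1, did not pass, where 19.6% of all genes fell. Their log2 differences lay between -3.09 and -0.63, with a median of -1.78. With housekeeping centring 16 fell and none rose (median -1.25). Cdc45 stood at 6.34, 6.35 and 6.40 in PRC2 loss tumors, against 8.73 to 9.99 in wildtype tumors, a log2 difference of -3.09 (limma adjusted p = 0.000285). Pcna stood at 10.90, 10.95 and 10.89 in PRC2 loss tumors, against 11.89 to 12.12 in wildtype tumors, a log2 difference of -1.11 (limma adjusted p = 0.000239). The Uhrf1 difference was larger than that of all 20 S phase genes, and the Dnmt1 difference was smaller than that of 19 of them. The mean level of the list was 8.60 ± 0.08 (SD, n = 3) for PRC2 loss, against 10.38 ± 0.38 (SD, n = 5) for wildtype. The S phase mean had a correlation of -0.954 with PRC2 loss. Its part in the members' results, apart from that of the group, was not tested. With the S phase mean as a covariate in limma no member passed, and 3 genes in all did. The log2 difference was then -1.96 for Uhrf1 (limma adjusted p = 0.316), 1.14 for Tet2 (limma adjusted p = 0.263) and 0.50 for Dnmt1, of the other sign (limma adjusted p = 0.571). Because the S phase means of the groups do not overlap, this fit can hardly separate them.

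A difference taken within a tumor does not change when all levels of that tumor are shifted alike, as centring does. It can still depend on the quantile normalization, which does not shift all levels of a tumor alike. Uhrf1 lay under the S phase mean in each PRC2 loss tumor, by -0.74, -0.30 and -1.36, and above it in each wildtype tumor, by 0.83, 1.21, 1.33, 0.74 and 0.77. The group difference was -1.78. Dnmt1 lay above the S phase mean in every tumor, by 2.22, 2.35 and 2.61 in PRC2 loss tumors, against 1.62, 1.72, 1.51, 1.63 and 1.69 in wildtype tumors. Relative to S phase genes Dnmt1 was therefore higher in PRC2 loss, by 0.76, although its level was lower. Dnmt3b relative to the S phase mean stood at -1.01, -1.46 and -0.60 in PRC2 loss tumors, against -2.75, -1.97, -2.74, -3.01 and -2.54 in wildtype tumors, a group difference of 1.58. Uhrf1 minus Dnmt1 was -2.96, -2.65 and -3.97 in PRC2 loss tumors, against -0.79, -0.51, -0.18, -0.89 and -0.92 in wildtype tumors, a group difference of -2.54. In these 4 measures the groups did not overlap, and each had a two-sided exact permutation p of 0.0179 and an adjusted p of 0.0357 over the 8 within-tumor differences. The S phase mean itself differed by -1.78 without overlap, so a gene with little difference of its own, such as Dnmt3b, separates from it. For Dnmt1 and Dnmt3b against the S phase mean, these p-values are therefore no result about the gene itself. Genes of the list, such as Cdc45 and Cdc6 (log2 differences of -3.09 and -3.00), also fell more than that mean, and others fell less. The p-value of Uhrf1 against the mean therefore shows nothing particular to Uhrf1. With any tumor left out the exact test has fewer assignments, and the adjusted p was then between 0.0571 and 0.0952 for each of the 4.

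**Figure D3:**
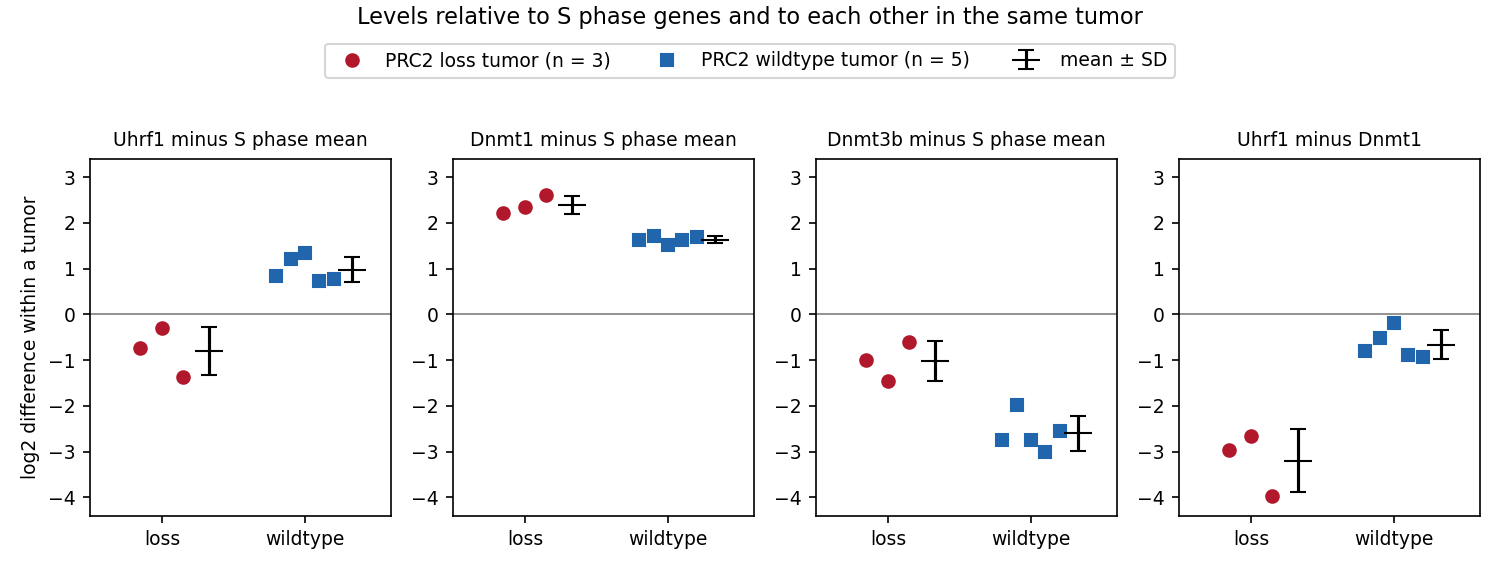
Log2 difference within each tumor (vertical axis) for Uhrf1, Dnmt1 and Dnmt3b relative to the mean of 20 S phase genes, and for Uhrf1 relative to Dnmt1; circles are PRC2 loss tumors (n = 3), squares PRC2 wildtype tumors (n = 5) and black bars means ± SD. Uhrf1 falls below the S phase mean in the PRC2 loss tumors and lies above it in the wildtype tumors. Dnmt1 and Dnmt3b are higher in PRC2 loss relative to that mean, which itself fell.

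Uhrf1 moved furthest in the order of the members by level. To compare genes, levels were taken per kb of merged exons (GENCODE M21), on the log2 scale. Uhrf1 ranked 5th in PRC2 loss at 5.71 ± 0.60 (SD, n = 3) and 1st in wildtype at 9.26 ± 0.39 (SD, n = 5). Dnmt1 ranked 2nd in both groups, at 8.11 ± 0.20 and 9.13 ± 0.33. In PRC2 loss the order from high to low was Dnmt3a at 8.17, Dnmt1, Tet3 at 7.86, Tet2 at 7.36, Uhrf1, Tet1 at 5.65, Dnmt3b at 5.22 and Dnmt3l at -0.58. In that group the values of Dnmt3a and Dnmt1, of Dnmt1 and Tet3, of Uhrf1 and Tet1, and of Tet1 and Dnmt3b overlapped between tumors. In wildtype the order was Uhrf1, Dnmt1, Tet3 at 7.78, Dnmt3a at 7.65, Tet2 at 6.75, Dnmt3b at 5.42, Tet1 at 4.84 and Dnmt3l at 1.23. There the values of Uhrf1 and Dnmt1, of Tet3 and Dnmt3a, and of Dnmt3b and Tet1 overlapped, although Dnmt3b exceeded Tet1 in 5 of 5 tumors. Merged exon lengths ran from 2.99 kb for Dnmt3l to 16.9 kb for Tet2 and count exons that a tumor may not use, so these levels are approximate.

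**Figure D4:**
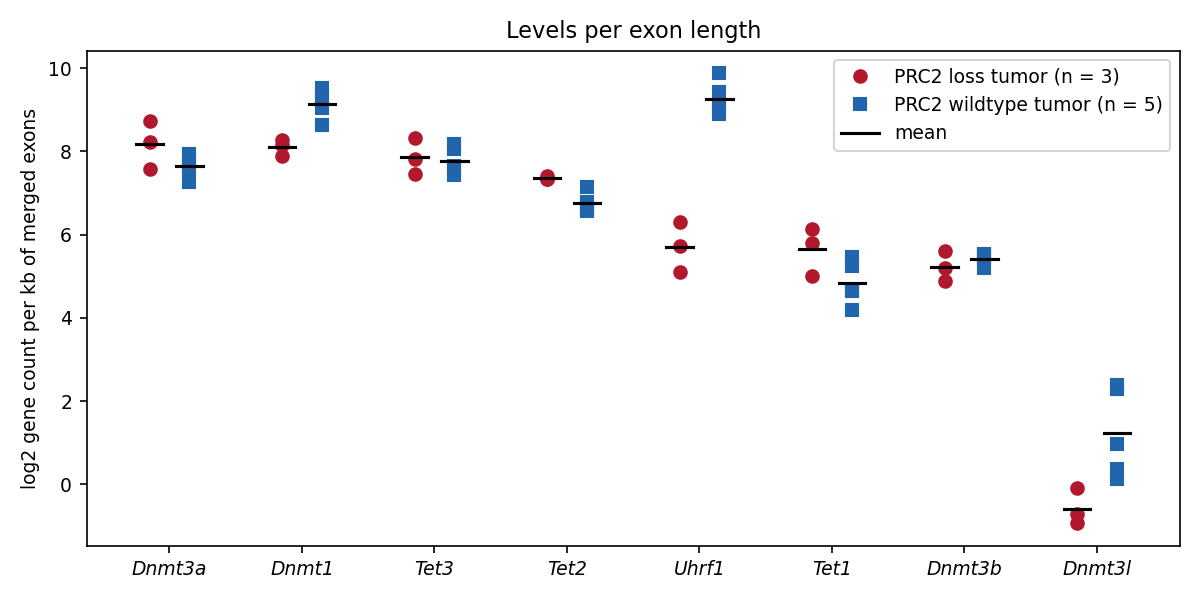
Log2 gene count per kb of merged exons (vertical axis) for the 8 genes, ordered by their mean in PRC2 loss; circles are PRC2 loss tumors (n = 3), squares PRC2 wildtype tumors (n = 5) and lines group means. Uhrf1 is among the highest genes in wildtype and in the lower part of the order in PRC2 loss.

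The counts of the lists below depend on how tumors are scaled to each other. Of all 20807 genes tested 16% rose, 19.6% fell and 35.7% passed in either direction. With housekeeping centring 7321 of them rose and 1802 fell. Beside these shares the counts of short lists are a description only. Of 17 partners of the methyltransferases 7 fell, 1 rose and 9 did not pass (median -0.29), while with housekeeping centring 6 fell and 7 rose (median 0.24). Hells, a chromatin remodeler needed for methylation of repeats, had levels of 6.58, 7.04 and 6.38 in PRC2 loss tumors, against 9.22 to 10.97 in wildtype tumors (log2 difference -3.75, limma adjusted p = 0.000477). Pclaf, a Pcna-binding factor that recruits Dnmt1 in a complex with replication proteins, had levels of 7.31, 7.76 and 6.12 in PRC2 loss tumors, against 10.14 to 11.44 in wildtype tumors (log2 difference -3.90, limma adjusted p = 0.000424). These differences were as large as that of Uhrf1. Cdca7l had a log2 difference of -2.56 (limma adjusted p = 0.000998). Dppa3, which opposes Uhrf1 in mouse oocytes, was low throughout, at 0, 1.50 and 1.18 in PRC2 loss tumors, against 3.46 to 4.85 in wildtype tumors (limma adjusted p = 0.00271).

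Among 8 readers of methylated CpG 4 rose, 1 fell and 3 did not pass (median 0.16), against 5 and 1 with housekeeping centring (median 0.69). Mbd1, a methyl-CpG binding repressor, had levels of 14.23, 12.67 and 12.66 in PRC2 loss tumors, against 10.86 to 11.20 in wildtype tumors (log2 difference 2.16, limma adjusted p = 0.00215). PRC2 loss tumor 1 stood well above the others. Zbtb38, a zinc finger gene of the list, had a log2 difference of 0.93 (limma adjusted p = 0.0258). The member that fell was Uhrf2, the paralog of Uhrf1, with levels of 10.83, 10.48 and 10.76 in PRC2 loss tumors, against 11.58 to 12.38 in wildtype tumors (log2 difference -1.30, limma adjusted p = 0.0021).

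Of 16 genes of base excision and partners of the Tet pathway 3 fell, 1 rose and 12 did not pass (median -0.17), while with housekeeping centring 2 fell and 5 rose (median 0.36). The log2 difference was -2.22 for the glycosylase gene Neil3 (limma adjusted p = 0.00115), -1.37 for the endonuclease gene Apex1 (limma adjusted p = 0.00076) and -1.45 for Gadd45b (limma adjusted p = 0.0271). Neil2, a glycosylase gene of the same family as Neil3, rose by 1.89 (limma adjusted p = 0.0251). Of 13 genes of the S-adenosylmethionine cycle, which supplies the methyl donor, 3 rose, 3 fell and 7 did not pass (median -0.41), while with housekeeping centring 3 rose and 2 fell (median 0.12). The folate enzyme genes Shmt1 and Shmt2 had log2 differences of -2.81 and -1.34 (limma adjusted p = 0.00441 and 0.0035), and Ahcyl1 one of 0.83 (limma adjusted p = 0.00359). Bhmt, which remethylates homocysteine, had levels of 5.34, 2.80 and 3.04 in PRC2 loss tumors and was listed at 0 in all 5 wildtype tumors.

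Germline genes are a group in which promoter methylation is a known means of silencing in somatic cells. Of 17 measured, 2 rose, 4 fell and 11 did not pass (median 0.06), where 16% of all genes rose and 19.6% fell. With housekeeping centring 6 rose and 2 fell (median 0.59). The 4 that fell without that centring were low. Their means were 0 to 1.52 in PRC2 loss and 1.28 to 4.29 in wildtype, so no direction is read from them. Rhox5, an X-linked homeobox gene, had levels of 8.12, 9.21 and 6.27 in PRC2 loss tumors, against 3.44, 4.45, 2.80, 1.97 and 4.11 in wildtype tumors (log2 difference 4.51, limma adjusted p = 0.00388). Piwil2, a piRNA pathway gene, had levels of 9.86, 10.74 and 9.71 in PRC2 loss tumors, against 8.98, 5.94, 6.38, 5.86 and 6.85 in wildtype tumors (log2 difference 3.30, limma adjusted p = 0.00768). Both ranges were clear of the wildtype tumors. The germ cell RNA-binding genes Dazl and Ddx4 were low, at 0 to 1.50 and 0.87 to 1.85 in PRC2 loss, against 1.85 to 3.28 and 3.46 to 5.00 in wildtype.

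**Figure D5:**
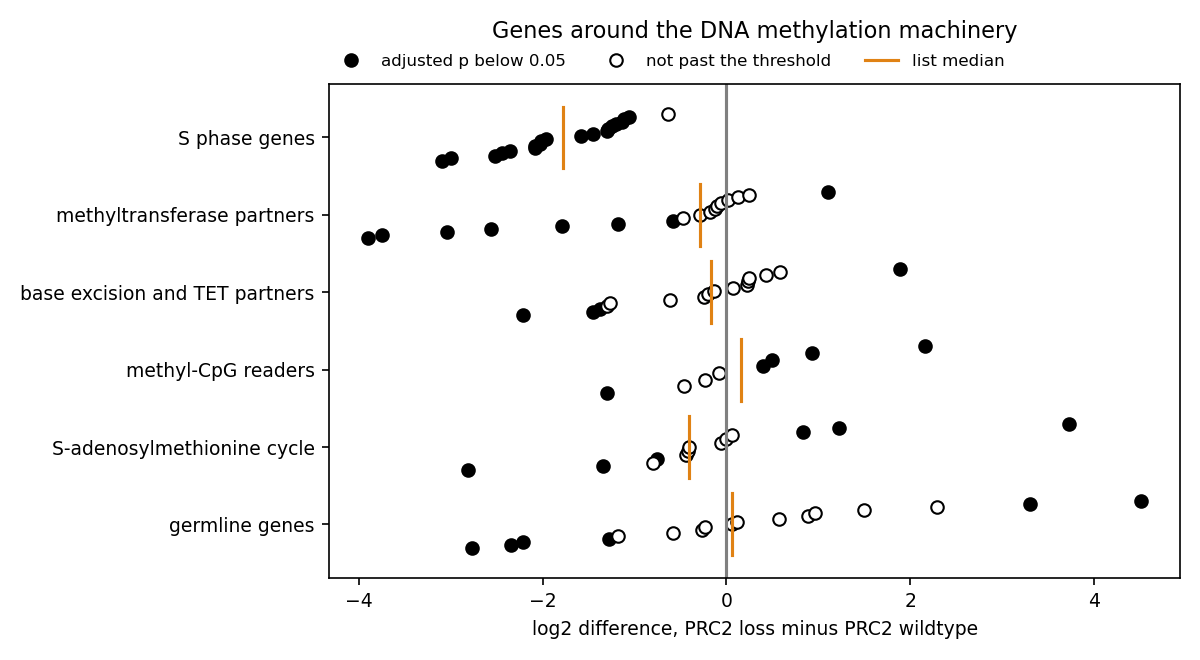
Log2 difference, PRC2 loss minus PRC2 wildtype (horizontal axis), of every measured gene in 6 lists; filled points passed an adjusted p of 0.05 in limma and vertical bars mark list medians. The S phase list has a median of -1.78, while the medians of the other 5 lists lie between -0.41 and 0.16, and between 0.12 and 0.69 with housekeeping centring (not drawn). Genes listed at 0 in all tumors of a group are drawn at fitted values, which are no folds.

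The genes with the most similar profiles were sought among 10403 genes in the upper part of the level range, those whose mean reached the median gene mean. Dnmt3b and Dnmt3l were below it. Likeness was the root-mean-square distance between levels in the 8 tumors, each gene centred on its own mean, in log2 units. Nearest to Uhrf1 were Ccnf at 0.279, Kifc1 at 0.289 and Cdca8 at 0.343. Their log2 differences were -3.51, -3.31 and -3.49, against -3.56 for Uhrf1, so a fall of this size was not particular to Uhrf1. Nearest to Dnmt1 were Prpf19 at 0.09, Dpp3 at 0.103 and Galns at 0.108. Nearest to Tet2 were Cspp1 at 0.0759, Slc39a10 at 0.0788 and Mia3 at 0.0868. For Dnmt3a they were Mosmo, Mamld1 and Zfp882 (0.0948 to 0.105), for Tet1 Klhdc10, Smo and Ppp1r3b (0.195 to 0.221) and for Tet3 Qser1, Scai and Fubp3 (0.0758 to 0.0933). Uhrf1 had the most distant neighbours of the 6 members compared. Profiles were centred but not scaled, so this distance grows with the size of a gene's differences, which was largest for Uhrf1.

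Markers of other cells also differed between the groups, and except where values are given below their part in the members' results was not tested. For comparison with the counts below, 16% of all genes rose and 19.6% fell. Of 9 markers of myelinating Schwann cells 8 rose and 1 did not pass (median log2 difference 3.79), and their summed level (log2 of the sum) was 17.4 to 18.3 in PRC2 loss and 12.4 to 14.5 in wildtype. Of 6 endothelial markers 5 rose and 1 did not pass (median 1.70, sum 14.7 to 15.5 in PRC2 loss, 12.8 to 13.6 in wildtype). Of 8 macrophage markers 5 fell and 3 did not pass (median -1.25, sum 14.8 to 15.2 in PRC2 loss, 15.6 to 16.7 in wildtype), and of 7 T cell markers 5 fell and 2 did not pass (median -2.21, sum 8.43 to 10.01 in PRC2 loss, 10.7 to 12.7 in wildtype). Of 6 fibroblast markers 2 rose and 4 did not pass, with a median of -0.20 (sum 19.1 to 19.4 in PRC2 loss, 18.2 to 19.1 in wildtype), and none of 7 skeletal muscle markers passed (median -1.45, sum 8.66 to 12.6 in PRC2 loss, 8.71 to 16.1 in wildtype). Muscle markers stood apart in wildtype tumors 1 and 2, which share an animal number, and to a lesser degree in PRC2 loss tumor 3. The muscle actin gene Acta1 had levels of 3.17, 6.78 and 10.15 in PRC2 loss tumors, against 14.10, 12.80, 4.22, 7.13 and 4.45 in wildtype tumors. Without wildtype tumors 1 and 2 the log2 difference was -3.75 for Uhrf1, -1.22 for Dnmt1 and 0.51 for Tet2 (limma adjusted p = 0.00185, 0.00307 and 0.0437). Without these and PRC2 loss tumor 3 as well it was -3.45, -1.30 and 0.52 for the same genes in that order (limma adjusted p = 0.00809, 0.0108 and 0.101), so Tet2 no longer passed. Dnmt3l passed in neither fit. With housekeeping centring none of the T cell markers and 3 of the macrophage markers fell, all 6 endothelial markers rose, and the fibroblast median was 0.33. No marker of these 6 lists was listed at 0 in all tumors of a group.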

How the data were processed

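The 8 tumors were sequenced as poly-A TruSeq libraries, per the labels. Trim Galore, STAR 2.6, Partek 7.0 and the build mm10 are named in the submitters' processing notes. How reads were counted, whether strand was used and which genes were filtered is not stated there. The values the authors deposited are quantile-normalized log2 gene counts, going by the name of the deposited table. They hold no library totals, so depth is unknown. The offset added before taking logs is also not stated. Low levels recur over genes at values that differ by tumor. Dnmt3aos stood at 0.333 in PRC2 loss tumors 1 and 3 and at 0 in tumor 2. In wildtype tumors 1, 2, 3 and 5 it stood at 1.13, 1.18, 1.22 and 1.70, and at 0 in tumor 4. Folds of low genes may therefore be too small or too large.

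Columns were matched to tumors by their descriptions, and titles gave the PRC2 status. After 136 genes without any variation were dropped, 20807 were fitted with limma 3.58.1 in R 4.3.3 (two-sided, variance prior with a trend on the mean). Its p-values were adjusted by the Benjamini-Hochberg method over these genes, with a threshold of 0.05, and the procedure was tested on simulated data. Members and 8 within-tumor differences also had exact permutation tests in Python 3.11.15. The labels call the tumors biological replicates, but shared animal numbers mean that some may come from the same mouse.

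The members and lists were chosen with earlier results of these data known. Named genes were the members, up to 4 genes of each list by smallest p past the threshold, and the 3 nearest profiles of each member at or above the median gene mean. A gene that this rule also names is not reported here. Positions and exon lengths came from GENCODE M21 (mm10), promoter windows from RefSeq (GRCm38.p6). Alternatives were a filter on low genes, pseudocounts of 1 and 16, array weights, other variance priors, centring on higher genes or on housekeeping genes, animal numbers averaged or as a block, the replicate block, an S phase covariate, the S phase median and leaving out each tumor. Counts of the lists under both centrings, and fits without the tumors high in muscle markers, were added after seeing the data.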

Additional observations from a re-analysis of the deposited data

How the results depend on the processing

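Of 22 alternatives in limma, Uhrf1 passed in 21, Dnmt1 in 20 and Tet2 in 19. The S phase mean as a covariate left 3 genes and 0 members called, with log2 differences of 0.50 for Dnmt1, now of the other sign, -1.96 for Uhrf1, 1.14 for Tet2 and -1.04 for Dnmt3l. Deviations of tumors with the same replicate number in the 2 groups had correlations of -0.208, 0.146 and -0.095. Pairs with different numbers ranged from -0.231 to 0.330, so these few pairs cannot decide whether the numbers pair tumors. With the replicate block 1903 genes and 1 member, Uhrf1, were called, and Dnmt1 (-0.87), Tet2 (0.58) and Dnmt3l (-1.80) were not. Leaving out genes below the median mean gave 4248 calls and averaging animal numbers 4226. Housekeeping centring gave 1.05 for Dnmt3a and 1.34 for Tet1, now called, 0.33 for Dnmt3b, of the other sign, and -1.28 for Dnmt3l, not called. Leaving out wildtype tumors 1 and 2, high in muscle markers, gave -1.54 for Dnmt3l, not called, and -0.094 for Tet3, of the other sign. Leaving out PRC2 loss tumor 3 too left 6010 genes and 2 members called. Tet2 (0.52) and Dnmt3l (-1.36) were then not called. Dnmt3l also missed the threshold with pseudocounts of 1 (-1.44) and 16 (-0.42), without a variance trend (-1.81), centred on genes above the median (-1.79), with animal numbers averaged (-1.50) and as a random block (-1.69).

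With each tumor left out in turn, calls over all genes ran from 5547 to 7694 and over the members from 3 to 4. The log2 difference ran from -1.15 to -0.91 for Dnmt1, -3.86 to -3.25 for Uhrf1, -2.09 to -1.52 for Dnmt3l, 0.56 to 0.70 for Tet2, 0.25 to 0.82 for Dnmt3a, -0.38 to -0.03 for Dnmt3b, 0.57 to 1.13 for Tet1 and -0.14 to 0.29 for Tet3. It was -0.002 for Tet3 without wildtype tumor 2 and -0.14 without PRC2 loss tumor 1. Within tumors it ran from -2.81 to -2.15 for Uhrf1 minus Dnmt1, -2.03 to -1.50, 0.65 to 0.85 and 1.37 to 1.80 for Uhrf1, Dnmt1 and Dnmt3b minus the S phase mean, 0.43 to 1.21 for Dnmt3a minus Dnmt3b, -0.045 (without PRC2 loss tumor 1) to 0.51 for Tet1 minus Tet2, 0.61 to 0.86 for Tet1 minus Tet3 and -0.76 to -0.33 for Tet3 minus Tet2. With animal numbers averaged the exact test cannot reach 0.05. Dnmt3b and Dnmt3l are below the median mean and have no value under that filter. The causes of these changes were not tested.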
